A study of Mus musculus with 6 samples.

Results

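The 4 Hox clusters of the mouse were examined as listed peaks of H3K4me3, H3K27me3 and input DNA in mouse embryonic fibroblasts (MEFs). Members were all peaks that overlapped by at least 1 bp one of 4 windows of the mm9 build. The windows were HoxA with Evx1 on chromosome 6, 52098000 to 52270000, HoxB on chromosome 11, 96050000 to 96235000, HoxC on chromosome 15, 102745000 to 102870000, and HoxD with Evx2 on chromosome 2, 74485000 to 74610000. They held 100 of the 38760 peaks of the 6 lists, 24 in HoxA, 22 in HoxB, 28 in HoxC and 26 in HoxD. Of these, 96 were H3K4me3 peaks, 4 were H3K27me3 peaks and none was an input peak.

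Chromatin immunoprecipitation followed by sequencing was done on C57BL/6 MEFs, connective-tissue cells cultured directly from embryos. They were exposed to a chemical combination named 6TCF for 6 days or were untreated controls of day 6. The labels give 1 growth protocol for all libraries, with a serum medium supplemented with basic fibroblast growth factor, and do not name the chemicals of 6TCF or the number of embryos. Each condition had 1 library titled H3K4me3, 1 titled H3K27me3 and 1 of input DNA, so differences between the conditions have no replicate error and no p-value is given. The antibody field of the labels names H3K4me2 and H3K4me1 for the libraries titled H3K4me3 and H3K27me3. The titles are followed here, and which mark each antibody recognised cannot be settled from the labels.

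The lists held 18185 treated and 17168 untreated H3K4me3 peaks, with no peak wider than 9030 and 9151 bp. The H3K27me3 lists held 821 and 1242 peaks and the input lists 604 and 740. The lists give a start and an end per peak and no read number, height or score, so depth is unknown. A site with no peak in a list may still carry the mark. Gene positions of mm9 were not used here, so peaks are given by position and not by gene, and the fibroblast label could not be checked against marker genes.

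Hox genes encode homeodomain transcription factors that set the identity of body regions along the head-to-tail axis. They lie in 4 clusters, and the order of the genes along a cluster follows the order of their expression along the axis, with low-numbered genes more anterior and high-numbered genes more posterior. Trimethylation of histone H3 at lysine 4 marks active or poised promoters and is often broad over active Hox genes. Trimethylation at lysine 27 is laid down by Polycomb complexes, which hold Hox genes silent outside their domain. Fibroblasts keep a pattern of active and silent Hox genes that depends on the body site they came from.

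The genes examined were 38 Hox genes, 10 in HoxA, 10 in HoxB, 9 in HoxC and 9 in HoxD, all of them present in the RefSeq gene table of GRCm38.p6. In that table, from low to high coordinates, HoxA runs from Hoxa2 through Hoxa3, Hoxa4, Hoxa5, Hoxa6, Hoxa7, Hoxa9, Hoxa10 and Hoxa11 to Hoxa13 and then Evx1. HoxB runs the other way, from Hoxb13 through Hoxb9 and its neighbours to Hoxb2 and Hoxb1. HoxC runs from Hoxc13 to Hoxc4, and HoxD from Evx2 and Hoxd13 to Hoxd1. The low-numbered, anterior genes therefore stand at the low-coordinate end of HoxA and at the high-coordinate end of the other clusters. That mm9 has the same orientation was not checked.

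H3K4me3 peaks typically sit on promoters rich in CG dinucleotides, so promoter sequences from the RefSeq promoter table are shown. They are those of the outermost Hox genes of each cluster that this table holds. It lacks Hoxb13 and Hoxb9, so Hoxb8, an inner gene, is shown for that side of HoxB. Of HoxC it holds Hoxc4 only. Each is the 250 bases before the gene's start, in GRCm38.p6 coordinates that cannot be set against the mm9 peaks, 5′ to 3′ on the gene's strand, with each CG dinucleotide in capitals.
Hoxa2, chr6:52164832-52165081, minus strand: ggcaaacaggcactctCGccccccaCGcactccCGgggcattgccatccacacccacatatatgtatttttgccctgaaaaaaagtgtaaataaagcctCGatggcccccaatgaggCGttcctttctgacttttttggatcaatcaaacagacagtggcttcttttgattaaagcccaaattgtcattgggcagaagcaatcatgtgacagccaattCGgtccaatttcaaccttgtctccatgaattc
Hoxa13, chr6:52260881-52261130, minus strand: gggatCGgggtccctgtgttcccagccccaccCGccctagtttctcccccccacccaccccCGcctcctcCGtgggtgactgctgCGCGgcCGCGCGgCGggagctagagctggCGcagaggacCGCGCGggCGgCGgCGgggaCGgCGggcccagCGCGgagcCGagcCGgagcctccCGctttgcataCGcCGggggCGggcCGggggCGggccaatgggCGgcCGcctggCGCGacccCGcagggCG
Hoxb8, chr11:96281655-96281904, plus strand: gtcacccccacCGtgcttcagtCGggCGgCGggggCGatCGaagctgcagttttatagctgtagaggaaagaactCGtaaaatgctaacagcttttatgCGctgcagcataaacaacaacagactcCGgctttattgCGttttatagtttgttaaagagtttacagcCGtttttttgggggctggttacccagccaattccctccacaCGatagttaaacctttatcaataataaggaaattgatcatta
Hoxb1, chr11:96365508-96365757, plus strand: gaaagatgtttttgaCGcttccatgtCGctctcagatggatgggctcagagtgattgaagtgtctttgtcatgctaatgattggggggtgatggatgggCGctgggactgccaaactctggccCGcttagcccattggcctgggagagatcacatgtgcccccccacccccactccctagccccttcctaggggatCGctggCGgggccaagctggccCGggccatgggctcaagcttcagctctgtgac
Hoxc4, chr15:103034145-103034394, plus strand: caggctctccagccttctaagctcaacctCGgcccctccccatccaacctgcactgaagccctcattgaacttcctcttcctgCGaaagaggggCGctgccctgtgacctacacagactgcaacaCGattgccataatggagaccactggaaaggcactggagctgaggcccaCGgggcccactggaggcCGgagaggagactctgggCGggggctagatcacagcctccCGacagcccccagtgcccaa
Hoxd13, chr2:74667975-74668224, plus strand: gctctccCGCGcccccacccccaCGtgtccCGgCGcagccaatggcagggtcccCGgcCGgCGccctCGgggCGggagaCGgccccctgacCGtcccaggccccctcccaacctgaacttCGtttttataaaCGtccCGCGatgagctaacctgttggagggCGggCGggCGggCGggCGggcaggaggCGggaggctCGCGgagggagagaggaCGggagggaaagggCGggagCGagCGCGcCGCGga
Hoxd1, chr2:74762730-74762979, plus strand: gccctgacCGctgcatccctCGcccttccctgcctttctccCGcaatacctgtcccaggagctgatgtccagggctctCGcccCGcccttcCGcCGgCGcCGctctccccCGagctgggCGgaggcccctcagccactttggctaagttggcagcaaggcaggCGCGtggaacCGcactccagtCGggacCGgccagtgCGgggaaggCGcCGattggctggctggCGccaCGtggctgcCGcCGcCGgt
Hoxa2, which patterns the hindbrain and the second pharyngeal arch, had 6 CG dinucleotides, and Hoxa13, which patterns digits and the genital tract, had 35. Hoxd13, a limb and genital gene like Hoxa13, had 31, and Hoxd1 had 24. Hoxb8 had 12, Hoxc4 had 8 and Hoxb1, which specifies a hindbrain segment, had 7. The table held 24 promoters of 22 of the 38 genes, 10 in HoxA, 3 in HoxB, 1 in HoxC and 10 in HoxD. Their median was 12.5 CG dinucleotides, with a range of 2 to 35, and the median over all 32851 promoters of the table was 6. The motif CG reads the same on both strands. At least 1 was present in 24 of the 24 Hox promoters and in 92.1% of all promoters of the table.

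H3K4me3 covered a larger share of each of the 4 windows than of the sequence on either side, in both conditions. In treated cells 52 peaks covered 136410 bp, or 22.5% of the 607 kb of the windows, and in untreated cells 44 peaks covered 135203 bp, or 22.3%. In the 8 flanks of the same length on either side of each window, peaks covered 2.73% in treated and 2.64% in untreated cells. HoxC was the most densely covered, with 30.7% of its window in treated and 40.5% in untreated cells. HoxB followed with 21.8% and 22.1%, and HoxD had 20.4% and 20.7%. HoxA had 18.7% in treated and 10.4% in untreated cells. When autosomes and chromosome X were cut into consecutive stretches of the length of HoxC, none of 21086 stretches reached the coverage of HoxC in either condition. For HoxB, 2 of 14246 stretches of its length reached its treated coverage and 3 its untreated coverage. For HoxD the numbers were 14 and 16 of 21086. For HoxA, 9 of 15320 (0.0587%) reached its treated coverage and 183 (1.19%) its untreated coverage.

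The near-equal total hid opposite differences between clusters. In HoxA, 32142 bp lay under treated and 17927 bp under untreated peaks, a ratio of 1.79. In HoxC, 38437 bp lay under treated and 50574 bp under untreated peaks, a ratio of 0.760. In HoxB the numbers were 40284 and 40809 bp and in HoxD 25547 and 25893 bp, ratios of 0.987 in both. Over all peaks of the lists the ratio was 1.02. Among 15320 consecutive stretches of the length of HoxA, none (0%) had an excess of treated bases as large as in HoxA. Among 21086 stretches of the length of HoxC, 2 (0.00948%) had as large an excess of untreated bases. For HoxB and HoxD the shares were 11.5% and 11.7%. In the median stretch of the length of HoxA, HoxC or HoxD, 0% of bases lay under H3K4me3 peaks in either condition. A stretch without peaks can show no difference, so the shares also reflect how densely the clusters are covered. The grid of stretches does not follow the window edges and includes the clusters themselves. A stretch can hold nearly all of a cluster, as for HoxC, or a part of it. The shares describe these libraries without replicate error.

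**Figure D1:**
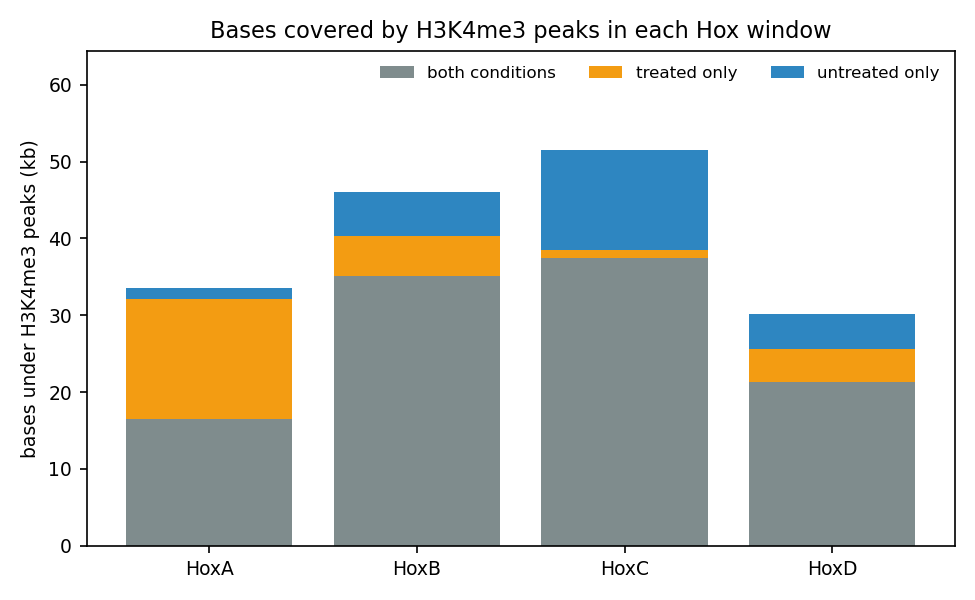
Bases under H3K4me3 peaks in each Hox window, in kb, stacked as bases covered in both conditions (grey), in treated cells only (orange) and in untreated cells only (blue), from 1 library per condition. HoxA has 15655 bp in treated cells only and HoxC has 13113 bp in untreated cells only.

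The bases behind these ratios differed in kind. In HoxA 15655 bp were covered in treated cells only and 1440 bp in untreated cells only. In HoxC 976 bp were covered in treated cells only and 13113 bp in untreated cells only. In HoxB 5191 bp were in treated cells only and 5716 bp in untreated cells only, and in HoxD 4219 and 4565 bp, so similar totals there rested on different bases. Bases covered in both conditions made up 49.1% of all covered bases in HoxA, 76.3% in HoxB, 72.7% in HoxC and 70.8% in HoxD, against 78.7% over the whole lists.

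Whole H3K4me3 peaks were listed in treated cells only at 8 places, and in untreated cells only at none. Of 52 treated peaks in the clusters, 8 (15.4%, exact 95% interval 6.88 to 28.1) overlapped no untreated peak, where the background over all treated peaks was 10.2%, a value within that interval. Of 44 untreated peaks, 0 overlapped no treated peak, which allows a share of up to 6.82% by a limit of 3 counts and up to 8.04% by the exact 95% interval, against a background of 4.73%. By cluster, the treated-only peaks were 5 of 14 in HoxA (35.7%, 12.8 to 64.9), 2 of 12 in HoxB, 0 of 13 in HoxC and 1 of 13 in HoxD. The intervals treat peaks as independent, which neighbouring peaks of a cluster are not, and cover counting error only.

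**Figure D2:**
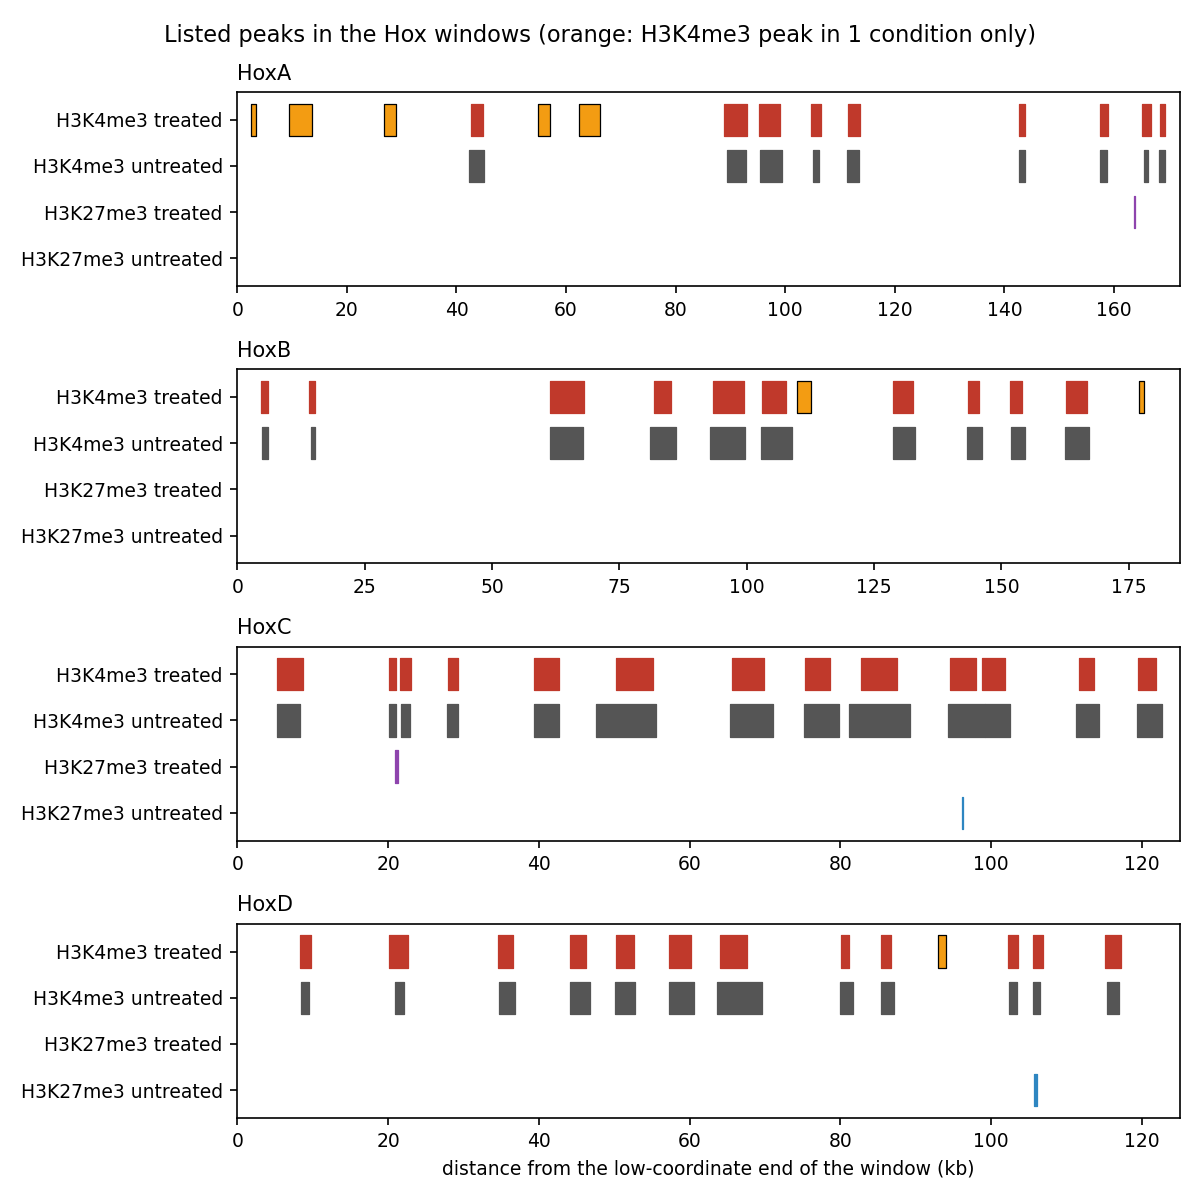
Positions of all listed H3K4me3 and H3K27me3 peaks in the 4 windows, as distance in kb from the low-coordinate end, with 1 row per library. Orange boxes are the 8 H3K4me3 peaks in treated cells only, 5 of them in the low-coordinate part of HoxA.

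In HoxA all 5 treated-only peaks lay on the low-coordinate side, the side of Hoxa2 in the gene table. The first 3 treated peaks were at 52100510 to 52101344 (835 bp), 52107485 to 52111598 (4114 bp) and 52124829 to 52126921 (2093 bp). The untreated peak nearest to them was 38.9, 28.7 and 13.4 kb away. A shared peak followed at 52140683 to 52142871 in treated and 52140293 to 52143008 in untreated cells, with 2189 and 2716 bp. Then came treated-only peaks at 52152910 to 52155024 (2115 bp) and 52160385 to 52164214 (3830 bp), which were 9.90 and 17.4 kb from an untreated peak. Together the 5 peaks covered 12987 bp. In untreated cells no peak was listed for 44.3 kb, between a peak that ended at 52143008 and the next that started at 52187317, and the last 2 of the treated-only peaks lay in that stretch.

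The treated-only peaks of HoxA were wide for their kind. Their median width was 2115 bp, against 863 bp for the 1854 treated-only peaks of the whole list and 1779 bp for the 9 shared treated peaks of HoxA. Among treated peaks wider than 2 kb, a limit chosen after the widths were seen, 4 of 8 in HoxA and 5 of 33 in the 4 clusters (15.2%, 5.11 to 31.9) were treated-only. The background was 0.895%, or 83 of 9274. Of the 27 untreated peaks of that width in the clusters none was in 1 condition only, and the background was 0.656%. Of 15320 stretches of the length of HoxA, 1 (0.00653%) held at least 5 treated-only peaks. The median stretch of that length had 0% of its bases under H3K4me3 peaks in either condition. No untreated peak wider than 9151 bp was listed, and whether wider peaks were left out of the lists was not tested.

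From 52186858 to the high-coordinate end of HoxA, the end of Hoxa13 and Evx1 in the gene table, every H3K4me3 peak was shared. The widest treated peak stood in the pair at 52186858 to 52191088, with 4231 treated against 3563 untreated bp. Its neighbour at 52193214 to 52197465 had 3794 and 4100 bp. The 4100 bp peak, at 52193366 to 52197465, was the widest untreated peak of HoxA. The next pairs had 1779 against 1124 bp and 2135 against 2313 bp. After a stretch of 28.9 kb without a treated peak came 4 narrow pairs, of 1102 against 1091 bp, 1352 against 1197 bp, 1668 against 839 bp and 905 against 984 bp. The pair at 52263119 to 52264786, with 1668 against 839 bp, had the highest ratio of HoxA, 1.99, and the pair at 52140293 to 52143008 the lowest, 0.806.

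Widths of shared peaks were compared in pairs of 1 treated and 1 untreated peak that overlapped each other and no other peak. The clusters held 42 pairs, 9 in HoxA, 10 in HoxB, 11 in HoxC and 12 in HoxD. Of these, 25 (59.5%) were narrower in treated cells, against a background of 53.1% over all 16153 pairs. Past a 1.2-fold difference, 14 were narrower in treated cells (33.3%, background 12.4%) and 9 wider (21.4%, background 16.4%). The median log2 of treated over untreated width was -0.11 in the clusters and -0.02 in all other pairs, with standard deviations across pairs of 0.45 and 0.33. By cluster the median was 0.01 in HoxA, -0.15 in HoxB, -0.46 in HoxC and -0.09 in HoxD.

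**Figure D3:**
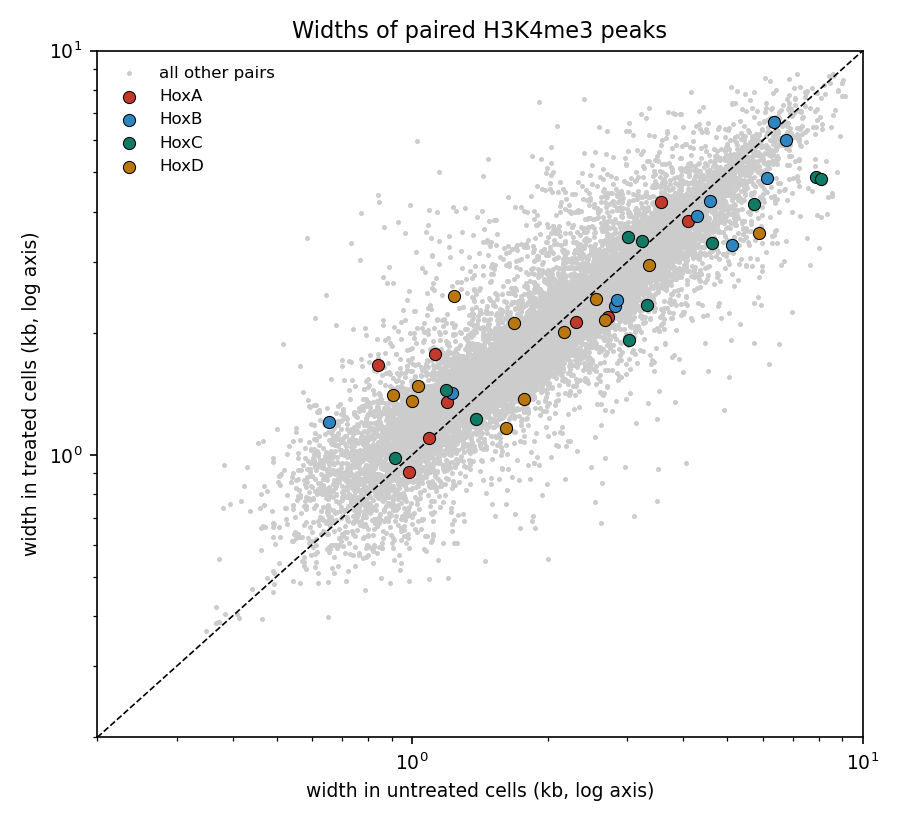
Width of each paired H3K4me3 peak in treated against untreated cells, in kb on log axes, for the Hox pairs (coloured by cluster) and all other pairs (grey), with the dashed line at equal width. In HoxC the widest untreated peaks, 8075 and 7885 bp, stand far below the line, at 4815 and 4874 bp in treated cells.

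Most wide Hox pairs were narrower in treated cells and most narrow ones wider. Over the other pairs the medians had the same signs and lay nearer to 0. Among pairs with a mean width over 4 kb, 9 of 10 Hox pairs were narrower in treated cells (background 62.1%), with a median log2 ratio of -0.40 against -0.06 in 1510 other pairs. In each of those 9 narrower pairs the treated peak lay wholly inside the untreated one. Among the other pairs of that width this held for 609 of 935 narrower pairs (65.1%). Among pairs over 2 to 4 kb, 12 of 15 were narrower (background 62.9%), with a median of -0.18 against -0.06. Among pairs up to 2 kb, 4 of 17 were narrower (background 40.4%), with a median of 0.29 against 0.06.

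In HoxC, the cluster of Hoxc13 to Hoxc4, every pair from 102792593 to 102867692 was narrower in treated cells. These 6 pairs summed to 21471 treated and 32667 untreated bp, a ratio of 0.657. Their log2 ratios ran from -0.75 to -0.46. In all 6 the treated peak started later, by 70 to 2605 bp, and ended earlier, by 406 to 1745 bp, than the untreated one. The widest untreated peak of HoxC, at 102826164 to 102834238, had 8075 bp and was wider than 99.8% of its list. It faced a treated peak of 4815 bp at 102827679 to 102832493, a 1.68-fold difference and the lowest ratio of the cluster. The peak at 102792593 to 102800477 had 7885 bp without and 4874 bp with treatment, where it was the widest of the cluster.

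The other narrowed pairs of HoxC had 4171 against 5732 bp, 3341 against 4629 bp, 1926 against 3033 bp and 2344 against 3313 bp in treated and untreated cells. Between them lay 2 treated peaks of 3404 and 3059 bp, at 102839583 to 102842986 and 102843767 to 102846825. They faced untreated peaks of 4856 and 3317 bp, at 102839303 to 102844158 and 102844170 to 102847486, which were 11 bp apart, so they formed no pair. The first untreated peak overlapped both treated ones.

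The low-coordinate part of HoxC, on the side of Hoxc13 and Hoxc12, differed little. The first 3 pairs, from 102750275 to 102768041, were wider in treated cells, with 3455 against 3015 bp, 985 against 916 bp and 1447 against 1186 bp. The third of these, at 102766595 to 102768041, had the highest ratio of the cluster, 1.22. A pair of 1225 against 1386 bp and one of 3391 against 3231 bp followed.

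HoxB, the cluster of Hoxb13 to Hoxb1, also held a block of wider pairs followed by a block of narrower ones. Its first 3 pairs, from 96054675 to 96118106, were wider in treated cells. They had 1421 against 1226 bp, 1206 against 653 bp and 6675 against 6366 bp. The pair at 96064118 to 96065323, of 1206 against 653 bp, had the highest ratio, 1.85. A stretch of 46.1 kb in treated and 46.3 kb in untreated cells without a listed peak lay between the second and the third pair. The 6675 bp peak, at 96111432 to 96118106, was the widest treated Hox peak and wider than 99.4% of its list.

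All 7 following pairs of HoxB, from 96131066 to 96217136, were narrower in treated cells, with 27077 against 32564 bp in sum, a ratio of 0.832. The treated peak ended earlier in all 7, by 206 to 1136 bp. The lowest ratio, 0.645, was at 96131066 to 96136181, where an untreated peak of 5116 bp faced a treated one of 3301 bp. The widest untreated peak of the cluster, 6764 bp at 96142839 to 96149602, faced 6030 bp. The next pair had 4848 against 6143 bp, and the remaining 4 had 3898 against 4280 bp, 2340 against 2822 bp, 2419 against 2850 bp and 4241 against 4589 bp.

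HoxB also had 2 treated-only peaks. One, at 96159891 to 96162699, had 2809 bp and lay 1009 bp past the end of the untreated peak of 6143 bp, at a place where the treated peak ended 1136 bp earlier. The other, at 96226908 to 96228003, had 1096 bp and was the last listed treated peak of the window, 9.77 kb from an untreated peak. It lay at the end where the gene table has Hoxb2 and Hoxb1.

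In HoxD, the cluster of Hoxd13 to Hoxd1 with Evx2, pairs were wider in treated cells at both ends and narrower between them. The first 2 pairs, from 74493285 to 74507593, had 1478 against 1030 bp and 2471 against 1241 bp. The second of them, at 74505123 to 74507593, had the highest ratio of all Hox pairs, 1.99, on the side of Evx2 and Hoxd13. The last 3 pairs, from 74587188 to 74602158, had 1362 against 997 bp, 1405 against 909 bp and 2125 against 1680 bp, a ratio of 1.36 in sum.

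The 7 middle pairs of HoxD, from 74519568 to 74572163, summed to 15628 treated and 20036 untreated bp, a ratio of 0.780. The widest untreated peak of the cluster, 5881 bp at 74548655 to 74554535, was wider than 98.2% of its list and faced the widest treated one, of 3538 bp, a ratio of 0.602 and the lowest of the cluster. Its treated partner ended 1997 bp earlier and started 346 bp later. The others had 2013 against 2177 bp, 2152 against 2676 bp, 2433 against 2565 bp, 2954 against 3349 bp, 1164 against 1613 bp and 1374 against 1775 bp. The single treated-only peak, 1078 bp at 74577948 to 74579025, lay 5.78 kb from an untreated peak, in a stretch of 15.2 kb without one.

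**Figure D4:**
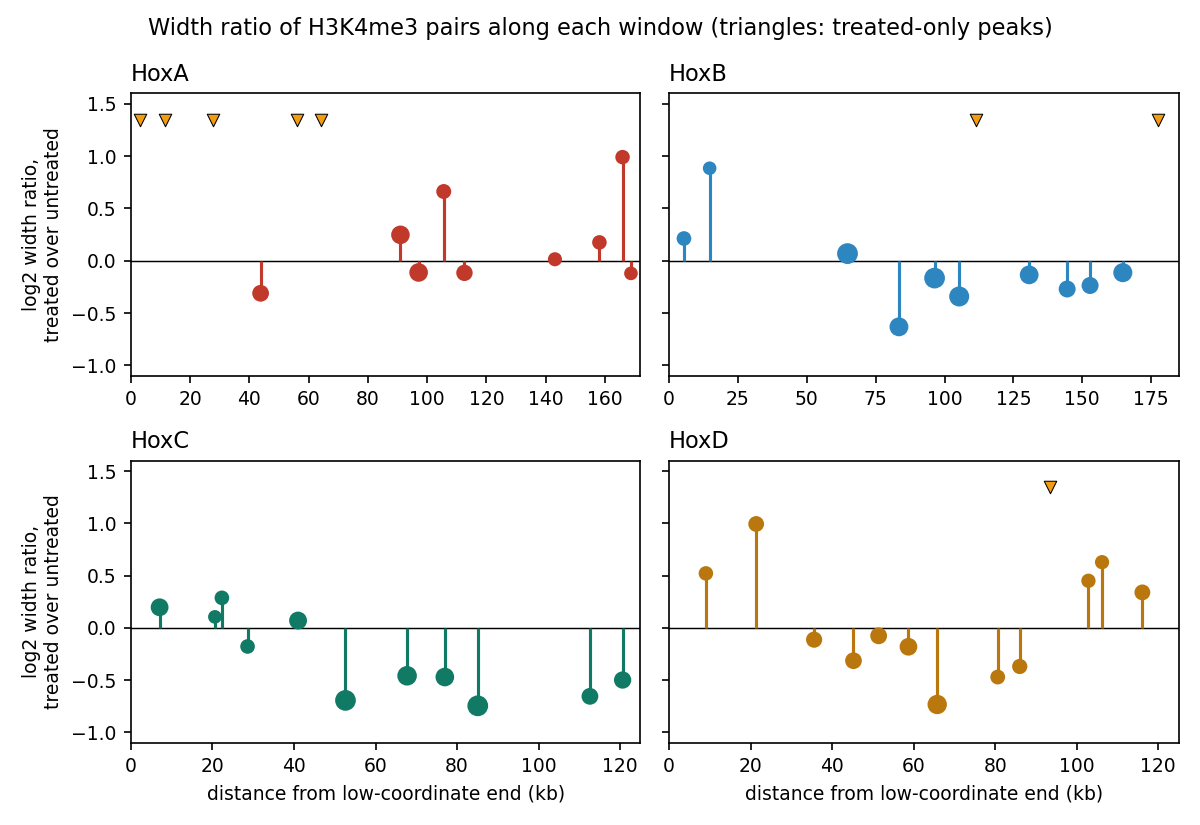
Log2 of treated over untreated width for each H3K4me3 pair along the 4 windows, by distance in kb from the low-coordinate end, with dot size growing with mean width and triangles at treated-only peaks (their height has no meaning). The 6 last pairs of HoxC and the 7 last of HoxB lie below 0, and in HoxD 7 pairs below 0 stand between 2 and 3 above it.

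H3K27me3 was listed at 4 places in the clusters, each in 1 condition only, and at none in HoxB. Over the whole lists 70.6% of treated and 80.5% of untreated H3K27me3 peaks were in 1 condition only, so this is near the background. The 2 treated peaks covered 794 bp and the 2 untreated peaks 659 bp, where the windows span 607 kb. None overlapped an input peak. All 4 were narrower than the 600 bp shear length of the labels. Median width was 149 bp in the treated and 211.5 bp in the untreated H3K27me3 list, against 146 and 142 bp in the input lists. The H3K27me3 lists covered 0.173 and 0.367 Mb and the input lists 0.134 and 0.155 Mb. Whether the H3K27me3 lists measure the mark beyond input background was not tested. Few listed peaks therefore do not show that the clusters lack it.

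In HoxA a treated H3K27me3 peak of 295 bp, at 52261580 to 52261874, lay at the high-coordinate end outside any H3K4me3 peak. In HoxC a treated peak of 499 bp, at 102765853 to 102766351, overlapped the H3K4me3 pair of 985 and 916 bp. An untreated peak of 185 bp in HoxC, at 102841075 to 102841259, lay under the untreated H3K4me3 peak of 4856 bp and the treated one of 3404 bp. In HoxD an untreated peak of 474 bp, at 74590603 to 74591076, lay on the H3K4me3 pair of 1405 against 909 bp, which was wider in treated cells, with a ratio of 1.55. So 3 of the 4 peaks overlapped H3K4me3 of either condition, and each of these did so in both. Over the lists, 40.7% of treated and 58.1% of untreated H3K27me3 peaks overlapped H3K4me3 of either condition. The windows are densely covered by H3K4me3, with 22.5% in treated cells against 2.73% of the flanks. Overlap by position alone is therefore likelier in them, and the shares are not like for like. None of the 8 treated-only H3K4me3 peaks overlapped an H3K27me3 peak of either condition, where 3.16% of all treated H3K4me3 peaks overlapped an untreated one and 1.36% a treated one.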

How the data were processed

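The submitters' processing notes list the mm9 build, HOMER, MACS 1.4.3, Bowtie2 2.2.5 and CASAVA 1.7. What each did, the calling threshold and the control are, in the sources used here, not stated. The authors deposited 1 peak list per library, and the values in it are a start and an end per peak, with no count, score or fold. Peak width was computed as end minus start, counted as bases, and positions are printed counted from 1.

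Members and lists were chosen with earlier results of these data known. Peaks counted as shared when they overlapped by at least 1 bp. Covered bases were counted inside the windows, and whole peaks entered the widths. Named peaks were all in 1 condition only, the widest per list and cluster, the pairs of highest and lowest ratio, and all H3K27me3 peaks. Overlaps were found with Python 3.11.15 (numpy 2.4.6, scipy 1.17.1, figures with matplotlib 3.10.9), tested on simulated data and checked against bedtools 2.31.1, which gave the same 1854 and 812 peaks in 1 condition only. Shares carry exact (Clopper-Pearson) 95% binomial intervals. Width classes, stretches and flanks are descriptions of these libraries, and the class limits and flanks were chosen after the peaks were seen. Sequences are from RefSeq.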

Additional observations from a re-analysis of the deposited data

How the results depend on the processing

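With 1 library per group no replicate could be left out. No paired analysis was possible because each group had a single library and no number. Of 181 values under alternatives, 167 kept their direction and moved by no more than 1.5 times, or by no more than the standard deviation across pairs for width ratios. These values are not independent. Leaving out peaks at an input peak could change nothing, since no member overlapped one. Counts that stayed at 0 and totals over the 4 clusters are also among the 167. HoxA had 4 or 5 treated-only peaks under every alternative run. With only peaks wider than 1 kb, the 5 were not all the same peaks. The peak of 835 bp was left out. The treated peak of 1668 bp at 52263119 to 52264786, near the high-coordinate end, lost its partner of 839 bp and was counted. With windows narrowed by 10 kb, HoxB had 1 treated-only peak in place of 2, H3K27me3 had 1 treated peak in place of 2, itself in 1 condition only, with 499 bp in place of 794, and the log2 ratio of covered bases over the 4 clusters was -0.030 in place of 0.013. With windows widened by 20 kb, HoxC had 1 treated-only peak in place of 0. With only peaks wider than 1 kb, HoxD had 3 treated-only peaks in place of 1, and the log2 ratio of covered bases was 0.0046 in HoxB in place of -0.019 and 0.091 in HoxD in place of -0.019. With only peaks wider than 2 kb, chosen after seeing the data, HoxB had 1 treated-only peak, HoxD had 2, and 1 untreated-only peak was counted in HoxC and over the 4 clusters. These last 2 settings remove narrow partners from the lists. With only pairs over 2 kb, also chosen after seeing the data, the median log2 ratio of HoxA was -0.11 (4 pairs) in place of 0.01. The median of HoxC lay between -0.48 and -0.40 under all alternatives. Read depth is unknown, so the smallest difference these lists can show cannot be given.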
